A study of Mus musculus with 12 samples.

Results

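Kruppel-like factors are zinc finger transcription factors, and 9 of their genes were read in macrophages polarized with IFNG or IL4. The genes were Klf2, Klf3, Klf4, Klf6, Klf7, Klf9, Klf10, Klf13 and Klf16, chosen by name from the 19549 features of the count files. Each had a row of its own, none was part of a joined name, and all 9 passed the filter on low counts, which kept 10421 features. The cells were bone marrow-derived macrophages grown from the marrow of naive female FVB mice, and no age or genetic change is given in the labels. They were held for 4 h with IFNG (interferon gamma, 200 units/mL) or with IL4 (interleukin 4, 40 ng/mL), and no untreated cells were among the samples. About 10% of the cells gave total mRNA, and the lysate of the rest was run on a sucrose gradient of 5 to 50% from which mRNA with more than 3 ribosomes was taken as polysome-associated mRNA. This gave 4 groups of 3 libraries (IFNG total, IL4 total, IFNG polysome and IL4 polysome), so each polarization difference is IFNG relative to IL4. The labels do not say whether replicates were separate animals or cultures, so the tests measure only the spread between these libraries, which may be technical.

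Kruppel-like factors bind GC-rich DNA and CACCC boxes through zinc fingers at the end of the protein, and differ mainly in the part that recruits partners. KLF2, KLF4, KLF6 and KLF7 are mostly grouped as activators, KLF3 recruits the corepressor CtBP, and KLF9, KLF10, KLF13 and KLF16 recruit the corepressor SIN3. In macrophages KLF2 is known as a brake on inflammatory activation, KLF4 as a partner of STAT6 in the response to IL4, and KLF6 as a promoter of inflammatory activation.

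Levels are in CPM, the read count relative to the size of its library, with library sizes scaled by TMM, which corrects for composition. The depth was 2563955 to 22014162 counts, and a level read from 3 counts equals 0.184 to 1.14 CPM depending on the library. The polysome libraries were the shallower ones, and Lars2 took 1.78 to 29.3% of their counts against 0.341 to 2.00% in total mRNA. All 10 macrophage markers had counts in every group, with summed levels of 8239 to 25130 CPM. Differences were tested with edgeR's quasi-likelihood test and are called at a Benjamini-Hochberg adjusted p under 0.05 over all 10421 features. As CPM is not corrected for length, levels are compared between groups for 1 gene and not between genes. In bulk RNA, fewer cells of a type and less message per cell cannot be told apart.

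**Figure D1:**
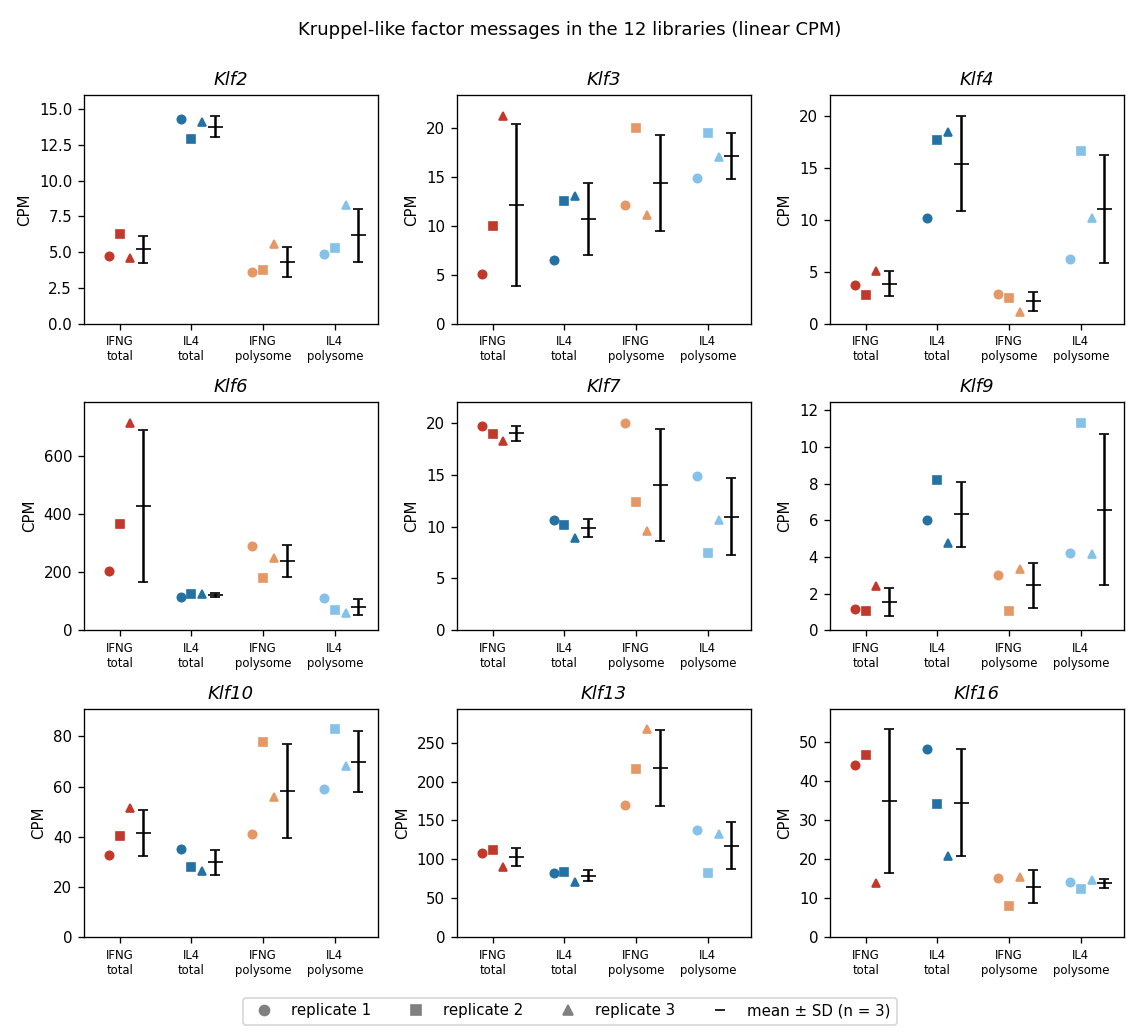
Level of each of the 9 Kruppel-like factors in the 12 libraries, in CPM on a linear axis, with 1 panel per gene. Symbols give the replicate number, and bars give the mean ± SD of the 3 libraries of a group. The Klf4 and Klf9 libraries lay lower with IFNG than with IL4 in both fractions, and those of Klf6 lay higher.

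Comparing IFNG with IL4 in total mRNA shows how the messages of the family differed between the polarizations. Klf6 was higher with IFNG, and Klf4 and Klf9 were lower. Thus 1 of 9 members was called higher, where 7.08% of all features were, and 2 of 9 were called lower, where 3.93% were. The groups did not overlap for 3 members above and 3 below IL4, where 13.4% and 12.3% of all features did so. The median log2 fold change was 0.18 over the 9 members and 0.04 over all features tested. An alternative chosen after seeing the data used the replicate number as a block in a fit of the total libraries alone. It called 2 members higher (Klf6 and Klf7) and 3 lower (Klf2, Klf4 and Klf9). The counts over all features were then 1334 higher and 1206 lower, against 738 and 410 in the main test.

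Sequence upstream of the start was taken from the RefSeq promoter table (GRCm38.p6), which held 7 of the 9 members and had no entry for Klf10 and Klf16. The 250 bases before the start are shown for the 3 members called between the polarizations and for Klf2, whose promoter holds a MEF2 match. On the same build the genes lie at chr8:72319062-72321654 (Klf2), chr4:55527137-55532475 (Klf4), chr13:5861489-5870393 (Klf6) and chr19:23141226-23168129 (Klf9). Capitals mark matches on either strand to the interferon-activated site (TTC and GAA with 3 bases between them), the STAT6 site (TTC and GAA with 4 bases between them), the MEF2 site (CTA and TAG with 4 bases between them) or the CACCC box, none of which overlapped another in these 4 windows.
Klf2, upstream of the start at chr8:72318812-72319061 (plus strand): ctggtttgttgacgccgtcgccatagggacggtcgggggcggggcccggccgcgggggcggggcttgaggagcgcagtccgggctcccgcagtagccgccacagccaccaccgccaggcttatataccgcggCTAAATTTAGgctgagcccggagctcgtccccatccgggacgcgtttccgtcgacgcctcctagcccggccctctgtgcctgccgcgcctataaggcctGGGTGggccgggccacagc
Klf4, upstream of the start at chr4:55532476-55532725 (minus strand): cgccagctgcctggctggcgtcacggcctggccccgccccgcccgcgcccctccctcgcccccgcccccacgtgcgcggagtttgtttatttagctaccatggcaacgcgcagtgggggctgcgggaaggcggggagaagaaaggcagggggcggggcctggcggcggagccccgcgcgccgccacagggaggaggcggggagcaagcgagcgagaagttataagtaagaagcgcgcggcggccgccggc
Klf6, upstream of the start at chr13:5861239-5861488 (plus strand): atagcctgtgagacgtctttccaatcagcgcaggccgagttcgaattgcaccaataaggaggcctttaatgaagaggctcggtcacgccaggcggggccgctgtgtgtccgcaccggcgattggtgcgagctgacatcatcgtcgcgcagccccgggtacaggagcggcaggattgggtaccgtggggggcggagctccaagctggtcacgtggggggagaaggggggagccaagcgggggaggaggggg
Klf9, upstream of the start at chr19:23140976-23141225 (plus strand): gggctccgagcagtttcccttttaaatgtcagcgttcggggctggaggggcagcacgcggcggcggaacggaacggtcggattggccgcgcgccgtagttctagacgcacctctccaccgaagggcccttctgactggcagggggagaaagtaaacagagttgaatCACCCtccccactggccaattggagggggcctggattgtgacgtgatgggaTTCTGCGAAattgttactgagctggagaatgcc
The MEF2 letters were found in 1 member, Klf2, where they end 109 bases before the start, and in 3.20% of the 32841 promoters of the table over the same 250 bases. MEF2 proteins are the targets of the kinase ERK5 that act on Klf2 in endothelium. The letters of the interferon-activated site were found once, in Klf9, ending 25 bases before the start, against 7.02% of all promoters. None of the 7 windows held those of the STAT6 site, which 5.85% of all promoters did. A CACCC box stood in the windows of Klf2, Klf3, Klf7, Klf9 and Klf13, against 52.0% of all promoters, and not in those of Klf4 and Klf6. The GC box GGGCGG, not marked above, stood in 6 of the 7 windows (all but Klf9), against 32.7% of promoters. The windows were 59.2 to 78.4% G and C. A match is a description of these letters only, and no match says nothing of the factor.

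Among the activators, Klf4 encodes a factor that supports monocyte differentiation. In total mRNA it measured 3.74, 2.79 and 5.10 CPM with IFNG (59, 24 and 59 reads) and 10.2, 17.7 and 18.4 CPM with IL4 (140, 288 and 291 reads). Every IFNG library lay below every IL4 library, with the IL4 libraries 2 and 3 well above library 1. The log2 fold change was -1.98 (SE 0.52, adjusted p = 0.0122 by edgeR). On polysomes Klf4 measured 2.82, 2.52 and 1.11 CPM with IFNG and 6.27, 16.6 and 10.2 CPM with IL4. The groups again did not overlap, although the lowest IFNG library held only 3 reads. Here the log2 fold change was -2.26 (SE 0.56, adjusted p = 0.00818 by edgeR). The call in total mRNA was lost without IFNG total replicate 2 (adjusted p = 0.0616), IL4 total replicate 2 (0.0587) or IL4 total replicate 3 (0.0538). The polysome call was lost without IL4 polysome replicate 2 (adjusted p = 0.0624).

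The summed levels of markers of other cell types stood apart between the polarizations as well, for some lists without overlap. Of 7 endothelial and stromal markers all had counts in total mRNA, and their summed level was 24.2 to 63.9 CPM with IFNG and 14.0 to 15.5 CPM with IL4. With IFNG most of this sum was Kdr, at a mean of 28.8 against 5.08 CPM with IL4. Pecam1 and Cxcl12 ran the other way, at 0.298 against 2.92 CPM and 0.169 against 0.313 CPM. On polysomes the sum was 76.8 to 159 CPM against 14.2 to 36.5 CPM, with Cxcl12 at 0 with IFNG. There Pecam1, Pdgfrb and Cxcl12 were lower with IFNG. The sum of 8 neutrophil markers was 10.6 to 33.5 CPM against 1.20 to 4.54 CPM in total mRNA, where Ly6g, Ngp and Elane were at 0 with IL4. On polysomes it was 3.99 to 8.13 CPM against 0.545 to 4.16 CPM. There Camp and Mpo ran the other way, at 0.059 against 0.118 CPM and 0.123 against 0.378 CPM. Ly6g and Elane were at 0 with both. The 6 dendritic cell markers, led by Xcr1 and Clec9a, summed to 8.43 to 26.9 CPM with IFNG and 0.552 to 1.60 CPM with IL4 in total mRNA. On polysomes they summed to 17.3 to 44.4 CPM against 0.681 to 2.13 CPM, with Flt3 at 0 in all libraries. Zbtb46 and Cd209a ran the other way in both fractions, at 0.4 against 0.623 CPM and 0 against 0.205 CPM in total mRNA. The erythroid and megakaryocyte list, carried by Pf4, ran the other way, at 336 to 767 CPM against 527 to 1104 CPM in total mRNA and 36.6 to 117 CPM against 156 to 328 CPM on polysomes. Lists of B cells, of T and NK cells and of mast cells summed to at most 6.22, 0.981 and 0.508 CPM in any library, and Ms4a1, Pax5, Cd3e, Ncr1 and Cpa3 had no count. The part of these cells in the Kruppel-like factor differences was not tested.

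Klf6, an early response gene in many cells, went the opposite way to Klf4. It measured 205, 365 and 715 CPM with IFNG and 114, 125 and 126 CPM with IL4 in total mRNA. The IL4 libraries lay close together, while the IFNG libraries were spread widely and did not reach down to them. The log2 fold change was 1.82 (SE 0.46, adjusted p = 0.00931 by edgeR), or 3.52-fold. On polysomes it measured 290, 180 and 250 CPM with IFNG and 112, 70.5 and 58.6 CPM with IL4, again without overlap. There the log2 fold change was 1.58 (SE 0.45, adjusted p = 0.0222 by edgeR). Without IFNG total replicate 3, the library with the highest level, the log2 fold change in total mRNA was 1.19 and the call was lost (adjusted p = 0.0756). The polysome call was lost without IL4 polysome replicate 2 (adjusted p = 0.0981) or replicate 3 (adjusted p = 0.112).

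Klf2, which in endothelium and T cells keeps cells quiescent, measured 4.76, 6.28 and 4.58 CPM with IFNG and 14.3, 12.9 and 14.1 CPM with IL4 in total mRNA. Both groups were tight and did not overlap, yet the log2 fold change of -1.41 (SE 0.46) missed the threshold (adjusted p = 0.0525 by edgeR). With the replicate number as a block it passed (adjusted p = 0.043), and 8 of its 20 alternatives called it, with adjusted p from 0.00128 to 0.141. On polysomes Klf2 measured 3.61, 3.78 and 5.54 CPM with IFNG and 4.91, 5.31 and 8.32 CPM with IL4. These groups overlapped, although IFNG was the lower one at each of the 3 replicate numbers. The log2 fold change of -0.53 (SE 0.49) was not called (adjusted p = 0.544 by edgeR), nor was it with the replicate number as a block (adjusted p = 0.523).

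Klf7, studied mostly in neurons and fat cells, measured 19.7, 19.0 and 18.2 CPM with IFNG and 10.6, 10.2 and 8.86 CPM with IL4 in total mRNA. The groups did not overlap, but the log2 fold change of 0.94 (95% interval 0.06 to 1.83) was not called (adjusted p = 0.194 by edgeR). With the replicate number as a block in a fit of the total libraries alone the adjusted p was 0.0357. On polysomes the libraries overlapped, with 9.60 to 20.0 CPM with IFNG and 7.44 to 14.9 CPM with IL4.

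Klf3, which recruits CtBP and acts as a repressor, had no call in any comparison. In total mRNA it measured 5.07, 10.0 and 21.2 CPM with IFNG and 6.45, 12.5 and 13.0 CPM with IL4, so the IFNG libraries ranged past those of IL4 at both ends. Its log2 fold change was 0.18 in total mRNA (95% interval -0.84 to 1.20) and -0.24 on polysomes (95% interval -1.29 to 0.80).

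In the group that recruits SIN3, Klf9 is a gene induced by glucocorticoid and thyroid hormones. It measured 1.14, 1.05 and 2.42 CPM with IFNG (18, 9 and 28 reads) and 6.02, 8.21 and 4.74 CPM with IL4 (83, 134 and 75 reads) in total mRNA. All 3 IFNG libraries lay below the IL4 libraries, and the log2 fold change was -2.03 (SE 0.63, adjusted p = 0.0374 by edgeR). On polysomes it measured 3.00, 1.05 and 3.32 CPM against 4.22, 11.3 and 4.16 CPM, with no overlap. The polysome difference of -1.41 (95% interval -2.75 to -0.06, log2) was not called (adjusted p = 0.166 by edgeR). The total call was lost without IFNG total replicate 1 (adjusted p = 0.101) or 2 (0.136), and without IL4 total replicate 1 (0.0785), 2 (0.154) or 3 (0.0515).

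Klf10, an early target of TGF-beta signalling, did not differ by a call between the polarizations. It measured 32.9, 40.4 and 51.4 CPM with IFNG and 35.2, 27.8 and 26.1 CPM with IL4 in total mRNA, and the groups overlapped. The log2 fold change was 0.48 in total mRNA (95% interval -0.31 to 1.28) and -0.26 on polysomes (95% interval -1.06 to 0.53).

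Klf13, known as a regulator of the chemokine gene Ccl5 in T cells, was not called either, although its groups did not overlap in either fraction. In total mRNA it measured 108, 112 and 90.3 CPM with IFNG and 82.7, 83.2 and 70.6 CPM with IL4 (log2 fold change 0.39, adjusted p = 0.668 by edgeR). On polysomes it measured 169, 216 and 267 CPM against 137, 82.5 and 132 CPM, a log2 fold change of 0.89 (95% interval 0.10 to 1.68, adjusted p = 0.128 by edgeR). Klf16, a little-studied member of the same group, ranged from 13.7 to 46.9 CPM with IFNG and from 20.8 to 48.4 CPM with IL4 in total mRNA. Its log2 fold change was 0.02 (95% interval -0.94 to 0.98), and its sign turned under 9 of 21 alternatives.

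On polysomes, then, the same comparison called Klf6 higher and Klf4 lower. This was 1 of 9 members higher, where 7.54% of all features were called, and 1 of 9 lower, where 6.58% were. The groups did not overlap for 2 members above IL4 (Klf6 and Klf13) and 2 below (Klf4 and Klf9), where 15.2% and 16.0% of all features did so (31.2% in either direction). The median log2 fold change was -0.24 over the members and -0.06 over all features. On the log2 values deposited by the authors, the differences in group means were -1.97 and -2.28 for Klf4, 1.63 and 1.60 for Klf6, and -2.08 and -1.38 for Klf9, in total mRNA and on polysomes.

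**Figure D2:**
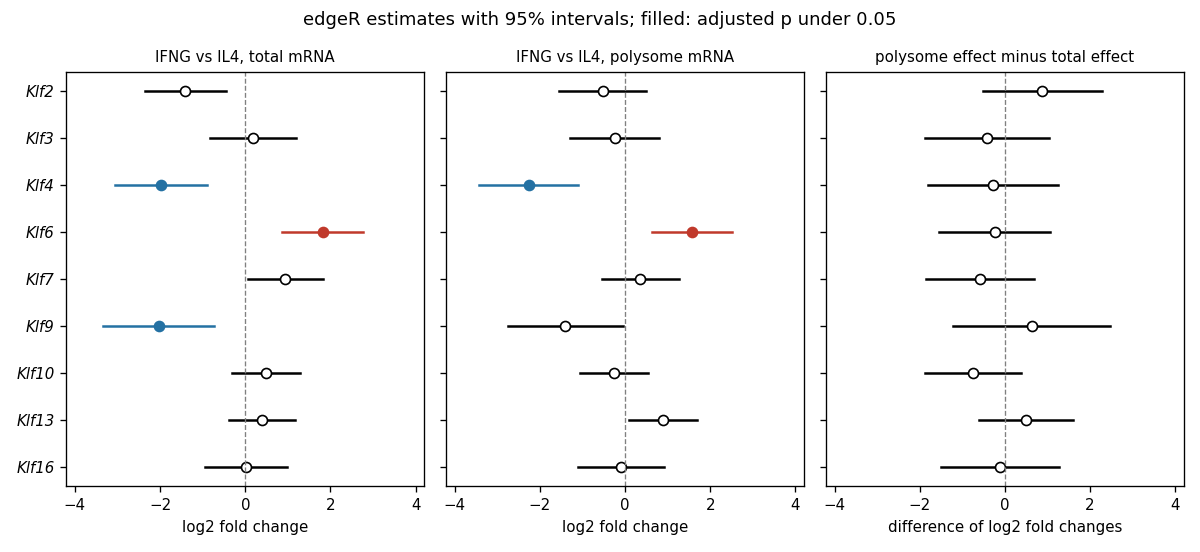
Log2 fold change of IFNG against IL4 for each member in total mRNA (left) and polysome-associated mRNA (middle), and the difference between them (right), with 95% intervals from the edgeR fit of 12 libraries. Filled points, red where higher and blue where lower, have an adjusted p under 0.05, which were Klf4, Klf6 and Klf9 on the left, Klf4 and Klf6 in the middle, and none on the right.

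The difference between the 2 effects asks whether the polarization changed a message on polysomes beyond total mRNA. None of the 9 members was called by edgeR, and 0 had an unadjusted p under 0.05. Over all features 0 of 10421 were called (0.00%), with 176 at an unadjusted p under 0.05, while DESeq2 called 1 and limma voom 0. The estimates ran from -0.75 for Klf10 (95% interval -1.87 to 0.38) to 0.88 for Klf2 (95% interval -0.52 to 2.27), on the log2 scale. For Klf4 the difference was -0.28 (95% interval -1.80 to 1.25) and for Klf6 it was -0.24 (95% interval -1.54 to 1.06). Klf9 had the widest interval (0.63, from -1.21 to 2.46). These intervals leave room for differences of over 1 log2 unit in all 9 members, so a separate response on polysomes was not detectable at this depth and spread.

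Averaged over both polarizations, the comparison of polysome-associated with total mRNA asks which messages lay more, or less, among those with several ribosomes. Klf10 and Klf13 were relatively higher on polysomes, and Klf16 was lower. That is 2 of 9 members higher (22.2%), where 22.6% of all features were called higher, and 1 of 9 lower (11.1%), where 25.7% were (48.2% in either direction). The 6 polysome and 6 total libraries overlapped for all 9 members, while 6.69% of all features lay wholly higher on polysomes and 10.5% wholly lower. The share called higher is near the background, so these are results about 3 genes and not about the family. The ratio is relative to the other messages of a library, and says nothing of the absolute number of ribosomes. Ratios between libraries of the same replicate number are given as a description only, since the labels do not say that they came from 1 preparation and such libraries did not all deviate together across the fractions (r from -0.074 to 0.445).

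Klf10 measured 41.1, 78.0 and 55.8 CPM on IFNG polysomes and 58.9, 82.9 and 68.1 CPM on IL4 polysomes, against 26.1 to 51.4 CPM in total mRNA. The fractions overlapped through IFNG total replicate 3, the highest total library. Set against the total library of the same number, the log2 ratio was 0.12 to 0.95 with IFNG and 0.74 to 1.58 with IL4. The log2 fold change was 0.86 (SE 0.27, adjusted p = 0.0128 by edgeR). Klf13 had a log2 fold change of 0.82 (SE 0.27, adjusted p = 0.0148 by edgeR). Its log2 ratios by number were 0.65 to 1.57 with IFNG and -0.01 to 0.90 with IL4. Klf16 measured 15.2, 7.99 and 15.5 CPM on IFNG polysomes and 14.0, 12.4 and 14.8 CPM on IL4 polysomes, against 13.7 to 48.4 CPM in total mRNA. The fractions overlapped through IFNG total replicate 3, the lowest total library, and the log2 ratios by number ran from -2.55 to 0.18 with IFNG and from -1.78 to -0.50 with IL4. Its log2 fold change was -1.38 (SE 0.34, adjusted p = 0.0023 by edgeR), or 2.61-fold. These 3 calls held under all 19 alternatives of the comparison, with adjusted p up to 0.0483 for Klf10, 0.0457 for Klf13 and 0.0096 for Klf16.

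Klf2 and Klf6 lay just on the other side of the threshold in this comparison, with log2 fold changes of -0.73 (SE 0.34, adjusted p = 0.0758) and -0.72 (SE 0.31, adjusted p = 0.064) by edgeR. Both were called lower on polysomes with Lars2 left out of the counts (adjusted p = 0.0373 and 0.0311) and with DESeq2 (0.0415 and 0.0408). Klf6 was also called without IFNG total replicate 1 (adjusted p = 0.0229), IFNG polysome replicate 1 (0.0439) or IL4 polysome replicate 1 (0.0423), so that 5 of its 19 alternatives and 2 of the 18 of Klf2 called it. For Klf4 the log2 fold change was -0.64 (95% interval -1.41 to 0.13), and for Klf3, Klf7 and Klf9 it was 0.47, -0.13 and 0.35, all with intervals that include 0.

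**Figure D3:**
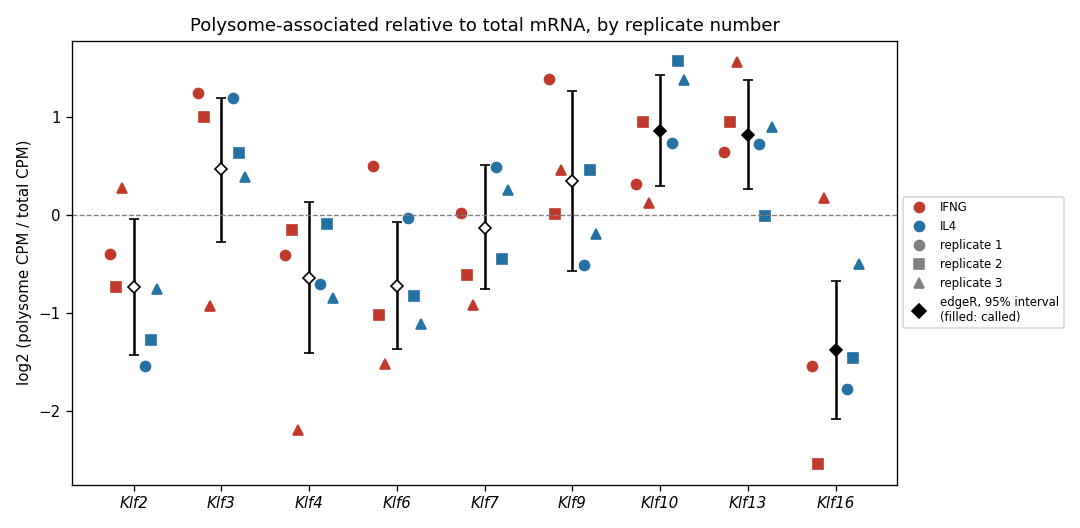
Log2 ratio of polysome CPM to total CPM for each member, with 1 coloured symbol per replicate number (red for IFNG, blue for IL4) and a black diamond with its 95% interval for the edgeR estimate over both polarizations. Filled diamonds were called. The estimates of Klf10 and Klf13 lie above 0 and that of Klf16 lies below 0, with 1 IL4 symbol of Klf13 at -0.01 and 1 IFNG symbol of Klf16 at 0.18.

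Of 17 other genes of the KLF and SP family, 6 had enough reads to be tested: Klf8, Klf11, Sp1, Sp2, Sp3 and Sp4. The remaining 11 (Sp6 the most) held at most 14 reads over the 12 libraries, and Klf12, Klf14, Sp5, Sp8 and Sp9 held none. None of the 6 was called between IFNG and IL4 in total mRNA or on polysomes, with median log2 fold changes of 0.21 and 0.18. Of all features 7.08% were called higher and 3.93% lower in total mRNA, and 7.54% and 6.58% on polysomes. A list of 6 is too short to tell the absence of calls apart from these shares. Relative to total mRNA, 3 of the 6 were higher on polysomes, where 22.6% of all features were: the CtBP-binding Klf8 (log2 fold change 1.44, adjusted p = 0.00587), the SIN3-binding Klf11 (1.33, adjusted p = 0.0063) and the general factor Sp1 (0.75, adjusted p = 0.0263), by edgeR. Klf11, a close relative of Klf10 that TGF-beta also induces, measured 9.30 ± 3.95 CPM on IFNG polysomes and 3.16 ± 0.895 CPM in IFNG total mRNA (SD, n = 3).

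Partner genes of the family were a list of 13 corepressors and coactivators, all tested. They had 0 calls between IFNG and IL4 in either fraction, with median log2 fold changes of 0.31 and 0.23. Of all features 7.08% were called higher and 3.93% lower in total mRNA, and 7.54% and 6.58% on polysomes. With 13 genes, 0 calls cannot be told apart from these shares. On polysomes relative to total mRNA 6 of the 13 were higher and 2 lower, where 22.6% and 25.7% of all features were. The SIN3 scaffolds went apart, with Sin3a higher (log2 fold change 1.32, adjusted p = 0.000399) and Sin3b lower (-2.05, adjusted p = 8.05e-05) by edgeR. Sin3b measured 336 ± 139 CPM in IFNG total mRNA and 67.9 ± 42.1 CPM on IFNG polysomes (SD, n = 3). The acetyltransferase gene Ep300 was higher (1.67, adjusted p = 0.000126), as was the corepressor gene Rcor1 (1.58, adjusted p = 0.000563), while the deacetylase gene Hdac3 was lower (-1.62, adjusted p = 0.00132).

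Upstream of KLF2 and KLF4, the list of the MEK5, ERK5 and MEF2 route, IL4 signalling and ubiquitin ligases had 11 of 13 genes tested. None was called in total mRNA, where 7.08% of all features were called higher and 3.93% lower. On polysomes 1 was higher and none lower, where 7.54% and 6.58% of all features were. This was the IL4 receptor chain Il4ra, at 196 ± 106 against 55.6 ± 20.5 CPM (log2 fold change 1.82, adjusted p = 0.0204 by edgeR). Stat6 and Fbxw7 were present only within joined names and were not tested. Mef2c, a transcription factor of that route, measured 21.9 ± 13.1 against 39.1 ± 6.17 CPM in total mRNA and was not called (adjusted p = 0.299 by edgeR).

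In the TGF-beta pathway, upstream of Klf10, 3 of 15 tested genes were higher with IFNG in total mRNA and 5 on polysomes, and 0 were lower in either, where 7.08% and 7.54% of all features were called higher. The receptor gene Tgfbr1 was at 144 ± 42.1 CPM with IFNG and 26.3 ± 1.63 CPM with IL4 in total mRNA, a log2 fold change of 2.46 (adjusted p = 0.000371 by edgeR). The inhibitory Smad6 measured 12.9 ± 3.07 against 2.49 ± 0.776 CPM, and the corepressor Tgif1 103 ± 18.2 against 39.6 ± 8.31 CPM. Smad3, a signal carrier, and Smad7, an inhibitor, were among the 5 called on polysomes (adjusted p = 0.03 and 0.0253 by edgeR). Over the list the median log2 fold change was 1.06 in total mRNA and 1.16 on polysomes, beside 0.04 and -0.06 over all features. Klf10 itself was not called, as given above.

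Glucocorticoid-induced genes, listed for Klf9, had 8 of 11 tested. Tsc22d3, a classical glucocorticoid target, was lower with IFNG like Klf9, at 9.67 ± 5.21 against 33.1 ± 3.69 CPM in total mRNA (log2 fold change -1.77, adjusted p = 0.0337 by edgeR). It was also lower on polysomes (log2 fold change -2.20, adjusted p = 0.0153 by edgeR). It was the 1 call in total mRNA, where 3.93% of all features were called lower, and the list's median was 0.70. On polysomes 1 of the 8 was called higher and 1 lower, where 7.54% and 6.58% of all features were. The receptor gene Nr3c1 was higher with IFNG on polysomes, at 120 ± 19.2 against 38.8 ± 20.1 CPM (adjusted p = 0.0235 by edgeR). Fkbp5, a chaperone that glucocorticoids induce, measured 16.4 ± 2.28 against 25.7 ± 3.94 CPM in total mRNA and was not called (adjusted p = 0.373 by edgeR).

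Genes reported as targets of KLF2 in other cells had 9 of 13 tested, with 3 higher and 1 lower with IFNG in each fraction. The shares over all features were 7.08% higher and 3.93% lower in total mRNA, and 7.54% and 6.58% on polysomes. The lower one was S1pr1, the receptor for sphingosine 1-phosphate that KLF2 activates in T cells, at 63.9 ± 24.3 against 278 ± 86.0 CPM in total mRNA (log2 fold change -2.12, adjusted p = 0.00258 by edgeR). On polysomes its levels were 72.7 ± 37.1 and 588 ± 117 CPM (log2 fold change -3.01, adjusted p = 0.000106 by edgeR). Among the higher ones were the adhesion gene Vcam1 (10.6 ± 4.69 against 0.145 ± 0.129 CPM in total mRNA) and the hypoxia factor gene Hif1a (160 ± 83.3 against 37.5 ± 14.0 CPM). KLF2 is known to raise S1pr1 in T cells and to lower Vcam1 in endothelium, so the list mixes both directions.

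The list of macrophage genes reported as targets of KLF4 or KLF6 had all 16 tested. In total mRNA 5 were higher and 4 lower, where 7.08% and 3.93% of all features were. On polysomes the list had 4 higher and 4 lower, where 7.54% and 6.58% of all features were. Its members are also polarization genes that IFNG and IL4 act on through other factors, so the part of the Kruppel-like factors in these counts was not tested. Lower with IFNG were the IL4 genes Retnla, Arg1, Chil3 and Mrc1, and higher were Nos2, Ptgs2, Ccl5, Tnf and, in total mRNA, Bcl6. Bcl6, a repressor that KLF6 is reported to lower, was at 434 ± 159 CPM with IFNG and 138 ± 58.7 CPM with IL4 in total mRNA (log2 fold change 1.65, adjusted p = 0.018 by edgeR). Pparg measured 4.02 ± 2.67 against 6.46 ± 4.09 CPM and was not called (adjusted p = 0.665 by edgeR). The list's median was 0.98 in total mRNA and 0.87 on polysomes, and stayed at 0.87 with Nos2, which had no read on IL4 polysomes, at its lower bound.

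The genes whose levels were most like those of the called members were taken by the Pearson correlation of log2 CPM over the 12 libraries, among 6310 features of at least 10 CPM on average. These values describe libraries that share group, depth and preparation. Closest to Klf4 were Ptrh2 (r = 0.948), Clybl (0.937) and Igf1 (0.928). Igf1, a growth factor of IL4-treated macrophages, measured 19.0 with IFNG against 302 CPM with IL4 in total mRNA. Closest to Klf6 were Lamp2 (r = 0.933), Casp1 (0.933) and Zdhhc2 (0.929). Casp1, the inflammasome protease, measured 70.5 against 17.0 CPM in total mRNA. Closest to Klf9 were Idh1 (r = 0.885), Insig1 (0.878) and Gga2 (0.877), and Idh1, an NADP-dependent metabolic enzyme, measured 5.50 against 46.9 CPM in total mRNA. Not all of these genes were called between IFNG and IL4. Ptrh2 was called in neither fraction (adjusted p = 0.357 in total mRNA and 0.225 on polysomes by edgeR), nor was Insig1 (0.418 and 0.056). Clybl and Lamp2 were called on polysomes only.

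**Figure D4:**
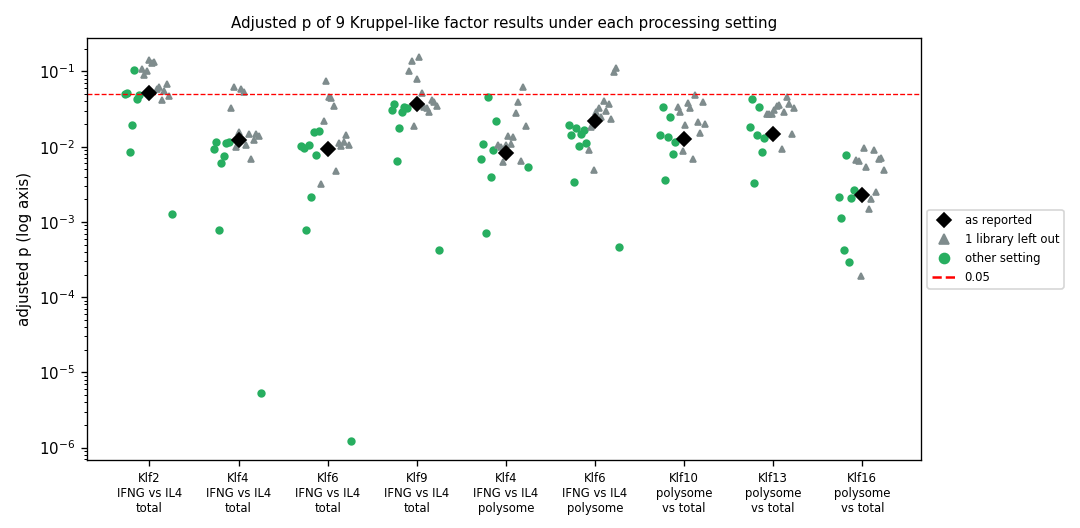
Adjusted p, on a log axis, of 9 results under each processing setting. Diamonds give the value as reported, triangles a fit without 1 library, circles another tool, scaling, filter or design, and the dashed line 0.05. Klf10, Klf13 and Klf16 stay below the line throughout, the polarization results of Klf4, Klf6 and Klf9 cross it in 1 to 5 fits that leave out a library, and Klf2 lies on both sides.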

How the data were processed

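SmartSeq2 libraries were made from total and polysome-associated mRNA, per the labels' protocols. The submitters' processing notes list HISAT2, HISAT, limma and mm10, each with no version. Which counter, strand setting and annotation were used is not given in the sources used here, so reads of overlapping or antisense genes cannot be told apart. Each deposited file lists 1 row per gene symbol with a raw read count, a whole number. Beside it stand log2 values on the TMM scale from the authors, per the file headers, for 11006 features including all 9 members.

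Groups and replicate numbers were read from the titles. The main tests used edgeR 4.0.16 under R 4.3.3, with filterByExpr over the 4 groups, TMM, and 1 quasi-likelihood model with 4 group means, no covariate and robust dispersion on all 12 libraries, with Benjamini-Hochberg adjustment over 10421 features. Intervals are 95% intervals from the estimate, its SE and the degrees of freedom. The model was tested on simulated data, with changes set in genes of at least 10 CPM. Of 100 changes of 2-fold it called 4 in total mRNA, 1 on polysomes, 0 for the difference of effects and 20 between fractions. For 100 changes of 4-fold these were 66, 61, 5 and 98. Genes not called may therefore still have differed. In the same simulations, genes left unchanged were called 5 times in total mRNA, 3 on polysomes, 0 for the difference of effects and 13 between fractions. Alternatives used RLE scaling, TMM without Lars2, DESeq2 1.42.0, voom in limma 3.58.1, no filter, a mean of at least 10 CPM, a replicate block, only the groups compared, and leaving out each library.

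Same-numbered libraries deviated together within total mRNA (r = 0.149 to 0.744 between IFNG and IL4) and within polysome mRNA (r = 0.158 to 0.357). Every pair was above 0.1, so by this rule the numbers pair the samples in these comparisons. The main tests did not use the pairing, which entered only as the replicate block among the alternatives. In total mRNA, IFNG replicate 2 had a higher r with another IL4 number (0.389) than with its own (0.149). Across the fractions not every pair of the same number deviated together. No 2 libraries were identical.

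The members and gene lists were chosen with earlier results of these data known. The members are always named. Of each other list and comparison, up to 4 called genes with the largest change are named, or 2 by level where none was called, and for each member called between IFNG and IL4 the 3 features most correlated with it over the libraries, on log2 of CPM plus 0.5. Sin3a, Pparg, Bcl6 and the other KLF4 and KLF6 target genes beyond those 4, and values of named genes in comparisons outside the rule, were chosen after their values were seen. 1 gene that the rule names is not reported here. Positions and promoter sequences come from RefSeq (GRCm38.p6, the assembly behind mm10).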

Additional observations from a re-analysis of the deposited data

How the results depend on the processing

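Over the 9 members, 161 of 168 alternative values between fractions, 156 of 168 for the difference of effects, 180 of 186 on polysomes and 156 of 186 in total mRNA kept their direction and their side of the threshold. No called member changed sign. The reversals were of values that were not called. For Klf16 in total mRNA these were -0.01 with RLE and with DESeq2, -0.09 with voom, -0.14 with a mean of at least 10 CPM and -0.09 with the replicate block in only the groups compared. Klf3 in total mRNA was -0.02 with voom, Klf16 on polysomes was 0.03 without Lars2, and the Klf16 difference of effects was 0 (to 2 decimals) without Lars2 and 0.13 with a mean of at least 10 CPM. Leaving out 1 library each gave -0.55 to 0.49 for Klf3 and -0.31 to 0.36 for Klf16 in total mRNA, 0 to 0.66 for Klf7 and -0.24 to 0.16 for Klf16 on polysomes, and, for the difference of effects, -0.73 to 0.4 for Klf3, -0.57 to 0.15 for Klf4, -0.43 to 0.48 for Klf6 and -0.44 to 0.3 for Klf16.

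Without 1 library, members called in total mRNA were 0 to 1 higher and 0 to 3 lower, on polysomes 0 to 1 higher and 0 to 1 lower, and between fractions 1 to 2 lower. Over all features, calls in total mRNA were 237 to 481 lower (237 without IFNG total replicate 2, 273 without IL4 total replicate 3). On polysomes they were 496 to 1001 higher (496 without IL4 polysome replicate 2, 503 without replicate 3) and 351 to 960 lower (355 and 407 without IFNG polysome replicates 2 and 3, 438 and 351 without IL4 polysome replicates 2 and 3). A mean of at least 10 CPM removed Klf2, Klf4 and Klf9, leaving 0 members called lower in total mRNA and 0 on polysomes. The replicate block in only the groups compared gave 1334 higher and 1206 lower features in total mRNA, with 2 members higher and 3 lower. The block over 12 libraries added Klf2 in total mRNA and changed no other member's call. For the difference of effects DESeq2 called 1 feature lower, and no filter gave 1 higher and 4 lower, none of them a member. Between fractions 3 members were lower without Lars2 and 3 with DESeq2. Scaling without Lars2 moved the median over all features from -0.06 to 0.05 on polysomes, from -0.1 to 0.01 for the difference of effects and from 0.04 to -0.09 between fractions. The causes were not tested. Klf2, Klf4 and Klf9 had 3 to 47 reads in each polysome library.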
